A study of Mus musculus with 4 samples.

Results

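The matrix glycoproteins and proteoglycans other than collagens were described in 4 lines of mouse LMTK- fibroblasts. The set held 44 genes chosen by family, with earlier results of these data known: laminins, nidogens and perlecan, fibulins, fibrillins and their partners, small leucine-rich and large proteoglycans, and adhesive and matricellular proteins. Every probe set that the platform annotation assigned to 1 of these genes was taken, which gave 88 of the 45037 non-control probe sets, for 41 of the 44 genes. Over the whole array, 18193 genes had such a probe set. Fbn1, Efemp2 and Spp1 were not analysed here. LMTK- is a fibroblast line derived from mouse L cells that lacks thymidine kinase. All 4 lines had been stably transfected by lipofection with the plasmid pCI-neo, which carries neomycin resistance. The vector lines, vector 1 and vector 2, held the empty plasmid. The melanotransferrin lines, MTf 4 and MTf 6, were clones that held the plasmid with the cDNA of mouse melanotransferrin, an iron-binding protein of the cell membrane. Each line was measured on 1 Affymetrix Mouse Genome 430 2.0 array, so each group had 2 arrays. It is not stated if vector 1 and vector 2 came from separate clones or cultures, so a p-value reflects just the spread among these arrays, which may be partly technical. With 1 array per line, a difference of a single line has no replicate check, and fewer cells that express a gene cannot be told apart from less RNA per cell.

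The extracellular matrix of fibroblasts is a network in which collagens are joined by glycoproteins and proteoglycans. Laminins, nidogens and perlecan build basement membranes, while elastin, fibrillins, fibulins and latent TGF-beta binding proteins build elastic fibres and microfibrils and hold growth factors. Small leucine-rich proteoglycans bind collagen fibrils and set their spacing, and fibronectin and matricellular proteins link cells to the matrix or modulate adhesion. The comparison of the clones with the vector lines asks which of these transcripts differ with melanotransferrin overexpression.

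No member passed the test between the clones and the vector lines, while many varied among the 4 lines. Of 20 genes bright enough to be tested, 9 had an at least 2-fold range over the 4 lines, that is 45.0%, against 11.8% of all 10706 genes tested. Without MTf 6 this count was 4, though leaving out a line can only keep or lower it. An at least 2-fold range over the 4 lines was also found in 7 of 20 tested other matrix glycoprotein and proteoglycan genes. It was found in 3 of 8 tested fibroblast markers, 4 of 29 enzymes of proteoglycan chain and hyaluronan synthesis, and 3 of 21 matrix receptors and proteases. Vector 2 or MTf 4 was the highest line in 19 of the 20 tested members. MTf 6 was the lowest line in 11 of them, led by Dpt (dermatopontin), Ogn (osteoglycin), Ltbp1, Lama5 and Fbln2.

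The 6 genes with an at least 2-fold range whose lowest line was MTf 6 are shown by their promoters, since they shared their lowest line. Sequences are the 150 bases before the RefSeq transcription start (GRCm38.p6), written 5′ to 3′ along the gene's strand, with motif matches in capitals. Ltbp1 has 2 starts in the RefSeq table, of which the upstream one is shown.
Lama5, chr2:180225860-180226009, minus strand: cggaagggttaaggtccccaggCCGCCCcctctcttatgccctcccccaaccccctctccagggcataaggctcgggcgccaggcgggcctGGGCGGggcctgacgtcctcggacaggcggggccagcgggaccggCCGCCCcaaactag
Fbln2, chr6:91212614-91212763, plus strand: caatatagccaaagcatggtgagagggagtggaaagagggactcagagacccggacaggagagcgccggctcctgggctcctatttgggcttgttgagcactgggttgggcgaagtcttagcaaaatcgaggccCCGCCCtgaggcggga
Ltbp1, chr17:75005379-75005528, plus strand: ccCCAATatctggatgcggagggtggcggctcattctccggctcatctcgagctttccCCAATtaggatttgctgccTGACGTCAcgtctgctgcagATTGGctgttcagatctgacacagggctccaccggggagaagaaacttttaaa
Ltbp2, chr12:84876492-84876641, minus strand: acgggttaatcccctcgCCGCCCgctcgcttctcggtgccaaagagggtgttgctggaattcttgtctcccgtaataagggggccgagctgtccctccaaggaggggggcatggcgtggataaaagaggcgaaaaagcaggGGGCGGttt
Ogn, chr13:49607865-49608014, plus strand: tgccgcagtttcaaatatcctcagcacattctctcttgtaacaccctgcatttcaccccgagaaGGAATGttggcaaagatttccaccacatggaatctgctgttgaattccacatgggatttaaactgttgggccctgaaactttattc
Dpt, chr1:164796513-164796662, plus strand: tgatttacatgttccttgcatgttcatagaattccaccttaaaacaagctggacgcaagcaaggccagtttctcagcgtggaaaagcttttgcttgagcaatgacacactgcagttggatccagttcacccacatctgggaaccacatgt

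Matches were searched on both strands. The core promoter motifs were the TATA box, written TATAAA, the CCAAT box, written as its name, and the Sp1 box, written GGGCGG. The sites of regulated factors were that of AP-1, written TGANTCA, the cAMP response element, written TGACGTCA, and that of TEAD, written GGAATG. No motif was common to the 6 promoters. The Sp1 box was in 3 of them, those of Lama5, Fbln2 and Ltbp2, against 28.6% of all 32851 RefSeq windows of this length. The cAMP response element and the CCAAT box were in that of Ltbp1, against 1.36% and 24.5% of all windows. The TEAD site was in that of Ogn (7.59% of all windows). The TATA box (7.57% of all windows) and the AP-1 site (4.24%) matched in none of the 6, and the shown part of the Dpt promoter held no match at all. A match is a description of these letters and says nothing of binding.

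Signals are the authors' deposited array values on a linear scale. They were tested as log2(signal + 32), so folds and log2 differences are on that scale and understate changes of dim probe sets. Levels were compared only within a probe set. Median signals were 214.4 and 214.2 on the vector arrays and 211.0 and 208.7 on the MTf arrays. Where 4 values follow each other, they are in the order vector 1, vector 2, MTf 4, MTf 6. Probe sets with a mean signal under 205.6, the median over all non-control probe sets, were not tested. Meltf, the gene of melanotransferrin, was at 265 and 274 in the vector lines, 1519 in clone MTf 4 and 1885 in clone MTf 6, so both clones lay above both vector lines, in the direction of their labels (log2 difference 2.52, SE 0.23, limma adjusted p = 0.0911). Of 10 fibroblast markers 8 passed this filter, with Vim between 74441 and 94073, while Thy1 and Fap stayed below it. Among markers of other lineages, 3 of 6 epithelial, 1 of 5 endothelial, 3 of 5 macrophage, 2 of 5 smooth muscle and 3 of 4 measured adipocyte genes passed it. So did 2 of 5 measured cartilage and bone genes, and 1 of 5 melanocyte genes, Mitf. Of those below it, Pecam1 (endothelial), Mlana (melanocyte) and Cnn1 (smooth muscle) had no signal above 45.9 in any line. Others of these lineages with a mean below it were brighter. Cdh5 (endothelial) reached 287 in MTf 4, and Tagln (smooth muscle) 136 in vector 2. Tyr and Pmel (melanocyte) reached 262 in MTf 6 and 241 in vector 2. Summed epithelial marker signals were 975 to 1137 in the vector lines and 1219 to 1489 in the clones. Epcam was at 131, 40.1, 326 and 405, and without it the sums were 1007, 934, 894 and 1085, so the groups overlapped. Summed adipocyte marker signals were 28688 to 29282 in the vector lines and 33312 to 34447 in the clones. Lpl was at 16560, 16698, 22861 and 20706, and without it the sums also overlapped, at 12722, 11990, 10452 and 13741. The part of these markers in the results was not tested.

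**Figure D1:**
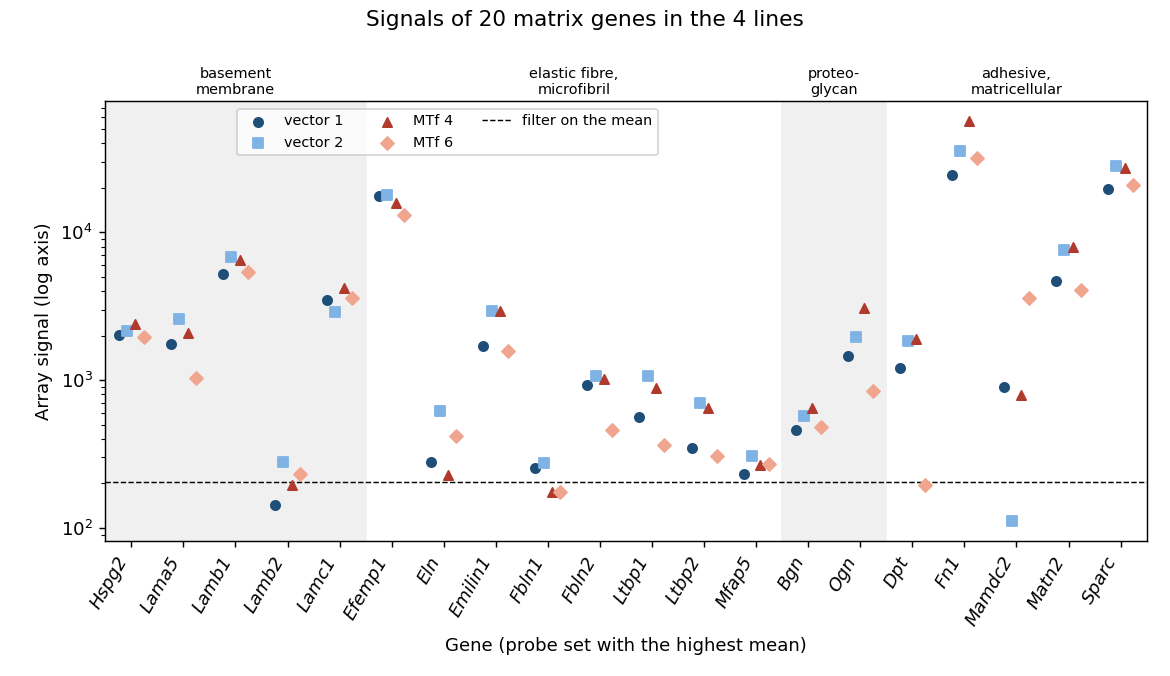
Array signal on a log axis of the 20 tested matrix genes, each drawn from its brightest tested probe set, with 1 point per line and the genes ordered by role. The dashed line is the filter on the mean signal, 205.6. MTf 6 lies well below the other lines for Dpt, Fbln2, Ogn and Lama5, and Mamdc2 spreads from 111 in vector 2 to 3584 in MTf 6.

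Over the whole set, 20 genes with 31 probe sets passed the filter, and 21 genes with probe sets did not. Probe sets just inside it were of Lamb2 (mean signal 213), Mfap5 (215) and Fbln1 (219), and just outside it lay probe sets of Sparc (192) and Bgn (187). In limma's test of MTf minus vector, 0 of the 31 probe sets passed at an adjusted p under 0.05, where 0.00444% of all 22519 probe sets passed. The adjusted p was 1.00 for each of the 31. At an unadjusted 0.05 limma's test gave 1 of 31, the probe set of Mamdc2, against 1.81% of all probe sets. Log2 differences were above 0 for 8 genes and below 0 for 12, with a median of -0.06, against -0.0050 over all genes tested. Both clones lay above both vector lines for 1 gene, Lamc1, against 11.8% of all genes. Both lay below for 2 genes, Efemp1 and Fbln1, against 12.6%. Both counts of members are near or below the share of all genes.

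**Figure D2:**
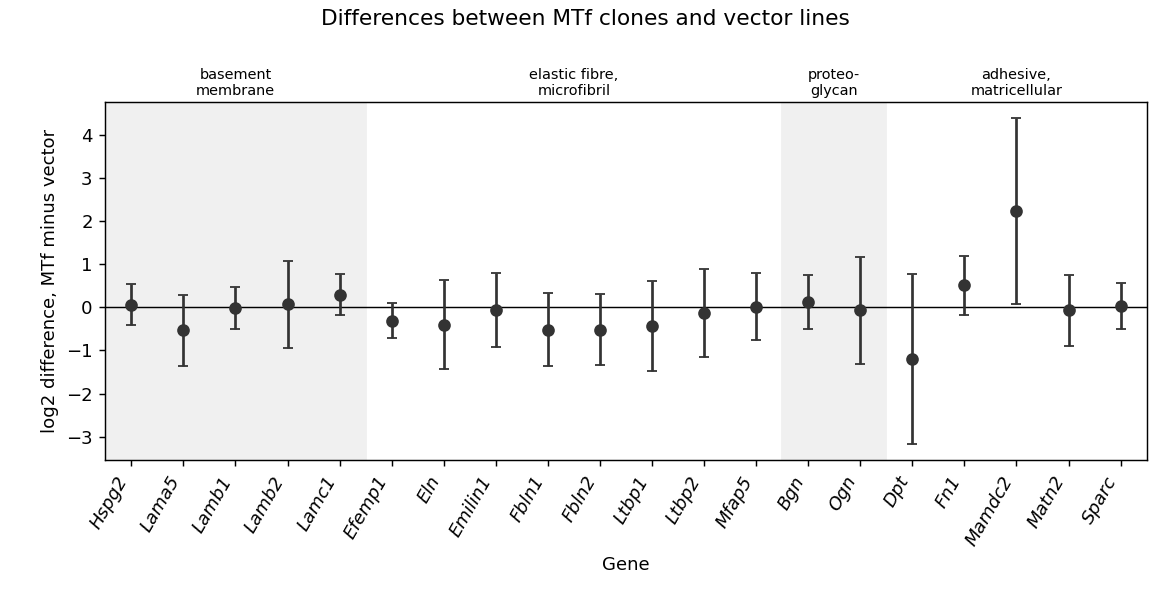
Log2 difference, MTf minus vector, of the 20 tested matrix genes by role, from 2 arrays per group. Points are limma estimates and bars their 95% intervals. The interval of Mamdc2 alone excludes 0 before adjustment, from 0.09 to 4.40, and that of Dpt is nearly as wide.

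Among basement membrane genes, 5 of 10 were tested, and laminin subunits differed in how they varied. Lama5, the alpha 5 chain of laminin, was at 1759 and 2607 in the vector lines, 2068 in clone MTf 4 and 1040 in clone MTf 6. MTf 6 was thus lowest and vector 2 highest, but MTf 4 lay between the vector lines, so the groups overlapped. The log2 difference was -0.53 (SE 0.35, 95% interval -1.35 to 0.28). The range over the lines was 2.46-fold. A further probe set of Lama5 gave 857, 1147, 934 and 375 in the same order of lines, with the same highest and lowest line.

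Lamc1, the gamma 1 chain shared by most laminins, was at 3480 and 2879 in the vector lines, 4210 in clone MTf 4 and 3593 in clone MTf 6. Both clones lay above both vector lines, by 3593 against 3480 at the nearest. The log2 difference was 0.29 (SE 0.20, 95% interval -0.18 to 0.77). Its other tested probe set did not part the groups, at 798, 756, 1098 and 550, with a difference of 0.00.

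Lamb1, the beta 1 chain, was nearly level, at 5257 and 6772 in the vector lines, 6512 in clone MTf 4 and 5417 in clone MTf 6. The log2 difference was -0.01 (95% interval -0.50 to 0.48), and its 3 tested probe sets lay between -0.01 and 0.10. Hspg2 encodes perlecan, the large heparan sulfate proteoglycan of basement membranes. It was at 2008, 2149, 2390 and 1971 in vector 1, vector 2, MTf 4 and MTf 6, the narrowest range of the 20 genes at 1.21-fold. A second Hspg2 probe set had MTf 6 as its highest line, at 1531 against 904 to 1128 in the others, so its 2 probe sets disagreed on MTf 6. Lamb2, the beta 2 chain, was close to the filter, at 143, 280, 195 and 233 in the same order.

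Lama1, Lama2 and Lama4, further laminin alpha chains, and Nid1 and Nid2, the nidogens that join laminin to collagen IV, all had mean signals below the filter. Their highest signal in any line and probe set was 159, for Nid1 in vector 2. Of the alpha chains in the set, Lama5 was therefore the only one to pass the filter. These probe sets were dim on the array, which is not shown to mean that the genes were silent.

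By the brightest probe set of each gene, vector 2 was the highest line in 8 of 8 tested elastic fibre and microfibril genes. The order of the other lines differed among them. This compares with 24.0% of all genes for which vector 2 was highest. By their other tested probe sets, MTf 4 was highest for Emilin1 and vector 1 for Mfap5. MTf 6 was the lowest in 6 of the 8. Their median log2 difference was -0.35, with 7 of 8 below 0 and 0 past limma's threshold, and 0 at an unadjusted 0.05.

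Ltbp1, a latent TGF-beta binding protein that tethers the growth factor to microfibrils, was at 560 and 1072 in the vector lines, 878 in clone MTf 4 and 364 in clone MTf 6. Vector 2 and MTf 4 were both above vector 1 and MTf 6, so the groups overlapped, and the log2 difference was -0.43 (SE 0.45, 95% interval -1.48 to 0.62). Ltbp2, a relative that does not bind latent TGF-beta, had the same order, at 345, 702, 651 and 306. Its difference was -0.13 (SE 0.44, 95% interval -1.16 to 0.90).

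Emilin1, a glycoprotein at the interface of elastin and microfibrils, repeated this order of lines by its brightest probe set. It was at 1691 and 2948 in the vector lines, 2938 in clone MTf 4 and 1563 in clone MTf 6, and its second probe set at 922, 1364, 1392 and 672. Both probe sets placed vector 2 and MTf 4 close together and well above the other lines. The log2 difference of the first was -0.06 (SE 0.37, 95% interval -0.91 to 0.80).

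Fibulins are calcium-binding glycoproteins of elastic fibres and basement membranes. By the tested probe sets MTf 6 was the lowest line for each of the 3 tested, for Fbln1 by only 173 against 175 in MTf 4. Fbln2, fibulin 2, was at 932 and 1062 in the vector lines, 1010 in clone MTf 4 and 461 in clone MTf 6. MTf 4 thus lay between the vector lines, and MTf 6 was 2.11-fold below MTf 4. The log2 difference was -0.52 (SE 0.35, 95% interval -1.35 to 0.31). Another Fbln2 probe set, below the filter, was at 7.7, 61.6, 101 and 64.9, with both clones above both vector lines. Fbln1, fibulin 1, was at 253, 273, 175 and 173 in vector 1, vector 2, MTf 4 and MTf 6, and both clones lay below both vector lines. Its difference was -0.52 (SE 0.36, 95% interval -1.36 to 0.33). Other Fbln1 probe sets were below the filter, and 1 of these had both clones above both vector lines, at 96.5, 50.5, 167 and 134 in the same order.

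Efemp1, also called fibulin 3, was the second gene with both clones below both vector lines. It was at 17565 and 18018 in the vector lines, 15835 in clone MTf 4 and 13011 in clone MTf 6. The group means were 17791 ± 320 (SD, n = 2) for vector and 14423 ± 1997 (SD, n = 2) for MTf. The log2 difference was -0.31 (SE 0.17, 95% interval -0.72 to 0.10).

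Eln, elastin itself, was at 281 and 621 in the vector lines, 227 in clone MTf 4 and 421 in clone MTf 6. Here MTf 4 was the lowest line, unlike most genes of the class, and the 2.52-fold range crossed the groups. Mfap5, a microfibril glycoprotein, was at 231, 305, 268 and 270 by 1 probe set. By its other tested probe set it was at 323 and 30.3 in the vector lines, 190 in clone MTf 4 and 315 in clone MTf 6, so vector 2 was highest by one and lowest by the other. The order of lines for Mfap5 therefore rests on the probe set.

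Among the dim genes of this class, Mfap2, a microfibril-associated glycoprotein, was at 395 in vector 1 and at 57.8 to 82.3 in the other lines. Fbln5, which is needed for elastic fibre assembly, was at 222 in MTf 4 and at 10.5 to 95.9 elsewhere. Each was above the filter value in 1 line only and had a mean below it. Fbn2, fibrillin 2, and Mfap4 stayed below it in all 4 lines. Second probe sets did not repeat the size of the Mfap2 peak or the line of the Fbln5 peak. The second probe set of Mfap2 was at 149, 123, 105 and 63.2 in vector 1, vector 2, MTf 4 and MTf 6, again with vector 1 highest. That of Fbln5 was at 16.1, 164, 51.5 and 23.4 in the same order, with vector 2 highest.

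In the class of small leucine-rich and large proteoglycans, Ogn and Bgn were tested and 6 of 8 were not. Ogn, osteoglycin, a small leucine-rich proteoglycan, was at 1452 and 1961 in the vector lines, 3060 in clone MTf 4 and 837 in clone MTf 6. The clones thus held both the highest and the lowest value, with the vector lines between them. The second probe set gave 1486, 1753, 3078 and 632 in the same order. MTf 4 was 3.56-fold above MTf 6 by the first and 4.68-fold by the second, while the log2 difference between the groups was -0.07 (SE 0.53, 95% interval -1.30 to 1.17). Bgn, biglycan, was at 459, 567, 649 and 484 in vector 1, vector 2, MTf 4 and MTf 6, a 1.39-fold range. Its difference was 0.13 (95% interval -0.50 to 0.75).

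Several small leucine-rich proteoglycan genes of the set lie close together in the genome, by the distances between members alone. In the RefSeq table of GRCm38.p6, Ogn and Aspn (asporin) are 40.5 kb apart on chromosome 13, Dcn (decorin) and Lum (lumican) 47.3 kb apart on chromosome 10, and Fmod (fibromodulin) and Prelp 107 kb apart on chromosome 1. Of these 6 genes Ogn passed the filter and the other 5 did not. Aspn, the member close to Ogn, had a highest signal of 72.4. Prelp was at 19.4 and 118 in the vector lines, 151 in clone MTf 4 and 225 in clone MTf 6, above the filter value in 1 line. Decorin and lumican, abundant in many connective tissues, had highest signals of 103 and 175. Vcan, versican, the large hyaluronan-binding proteoglycan, had 8 probe sets, with a highest signal of 163.

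The adhesive and matricellular genes held the largest differences between lines. Mamdc2, a proteoglycan with MAM domains, was at 897 and 111 in the vector lines, 796 in clone MTf 4 and 3584 in clone MTf 6. MTf 6 stood far above and vector 2 far below, while vector 1 and MTf 4 were close, with vector 1 the higher, so the groups overlapped. The range was 25.2-fold. The log2 difference was 2.25 (SE 0.92, 95% interval 0.09 to 4.40; limma adjusted p = 1.00). It was 1.18 without MTf 6 and 0.90 without vector 2, but 3.31 without MTf 4 and 3.59 without vector 1. Mamdc2 was the 1 gene of 20 with MTf 6 as its highest line, where 22.9% of all genes had it so. One probe set measured it.

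Dpt, dermatopontin, a small matrix protein that binds decorin and promotes collagen fibril formation, showed the reverse in MTf 6. It was at 1212 and 1834 in the vector lines, 1903 in clone MTf 4 and 196 in clone MTf 6. The vector lines and MTf 4 were within 1212 to 1903, and MTf 6 was 8.49-fold below MTf 4. The log2 difference between the groups was -1.20 (SE 0.84, 95% interval -3.18 to 0.78; limma adjusted p = 1.00). Without MTf 4 it was -2.74 and passed limma's threshold (adjusted p = 0.00636), a fit in which MTf 6 alone stands for the clones. Without MTf 6 it was 0.35. The sign of the difference thus turned with MTf 6, the only line with a low Dpt signal.

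Fn1, fibronectin, the main adhesive glycoprotein of fibroblast matrix, was at 24585 and 35814 in the vector lines, 56426 in clone MTf 4 and 31986 in clone MTf 6. MTf 4 was the highest line and vector 1 the lowest, and MTf 6 lay between the vector lines. A second probe set had the same order of lines, at 1481, 2357, 3391 and 1718. The log2 difference of the first was 0.52 (SE 0.29, 95% interval -0.17 to 1.21), and it was 0.93 without MTf 6 and 0.11 without MTf 4.

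Sparc, a collagen-binding matricellular protein, was at 19556 and 28289 in the vector lines, 27448 in clone MTf 4 and 20912 in clone MTf 6. Its second bright probe set ranked the vector 2 and MTf 4 lines above the others too, at 20845 and 22597 against 15915 and 16549. Matn2, matrilin 2, a filament-forming adaptor of the matrix, had the same arrangement, at 4650, 7649, 7920 and 4091 in vector 1, vector 2, MTf 4 and MTf 6. The log2 differences between the groups were 0.03 for Sparc (95% interval -0.51 to 0.56) and -0.07 for Matn2 (95% interval -0.90 to 0.77). In both genes vector 2 resembled MTf 4 and vector 1 resembled MTf 6 in level.

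The remaining genes of this class had mean signals below the filter. Postn, periostin, was at 67.3 and 107 in the vector lines, 28.9 in clone MTf 4 and 248 in clone MTf 6, above the filter value in 1 line. Tnc (tenascin C), Tnxb, Sparcl1, Mgp (matrix Gla protein, an inhibitor of calcification) and Tgfbi were below it in all 4 lines. Their highest signal was 193, for Tnxb in MTf 6. In all, 17 of the 21 untested genes were below the filter value in every line and 4 were above it in some line.

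Probe sets of the same gene were compared as a check that does not depend on a single set of probes, although they share the same arrays. Of 10 genes with more than 1 tested probe set, 6 had the same lowest line and 5 the same highest line by all of them. The same lowest line was found for Fn1, Sparc, Ogn, Emilin1, Lama5 and Matn2. Within a line, probe sets of these 6 genes differed by at most 0.26 in their log2 deviation from the gene's mean. The largest disagreement was that of Mfap5, at 1.88.

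**Figure D3:**
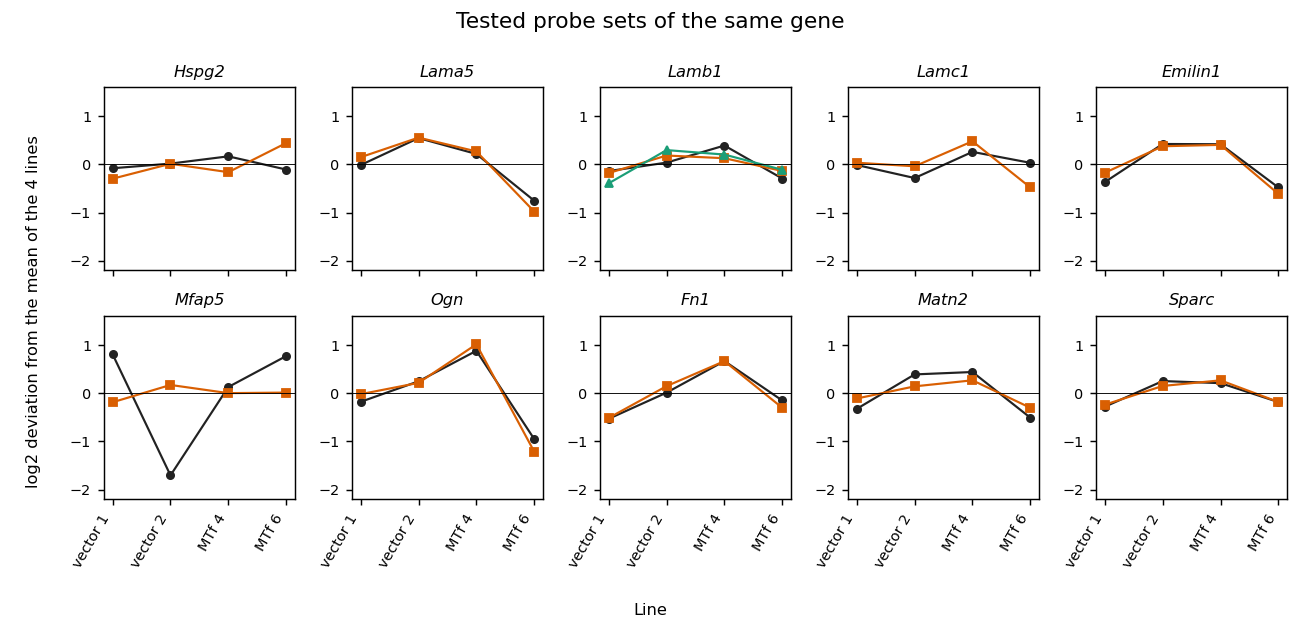
Log2 deviation of each line from the mean of the 4 lines for the 10 genes with more than 1 tested probe set, with 1 colour and marker per probe set. Lines join the values of a probe set and imply no order among the samples. The profiles of Ogn, Fn1, Lama5, Emilin1, Matn2 and Sparc lie close together, and those of Mfap5 do not.

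Members were mostly high in vector 2 and in MTf 4, but several, among them Fbln1, Efemp1, Eln, Lamc1 and Mamdc2, departed from this pattern. In log2 deviation from each gene's own mean over the 4 lines, the median of the 20 genes was -0.18 and 0.28 in the vector lines, 0.24 in clone MTf 4 and -0.22 in clone MTf 6. Over all genes tested these medians were -0.01, 0.02, 0.03 and -0.02. For the tested other matrix genes they were 0.05, 0.07, 0.11 and -0.19. The 2 tested smooth muscle markers had -0.34, 0.31, 0.20 and -0.16, and the 2 tested cartilage and bone markers -0.37, 0.37, 0.24 and -0.23. The 3 tested epithelial markers differed, at -0.23, 0.01, -0.24 and 0.17. Vector 2 lay above the gene's mean for 18 of 20 members and MTf 4 for 16, against 5 each for vector 1 and MTf 6. The median range over the lines was 0.93 (log2) for the members and 0.49 for all genes. It was 0.80 for the tested other matrix genes and 0.76 for the fibroblast markers. For the synthesis enzymes it was 0.49, and for the receptors and proteases 0.37.

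**Figure D4:**
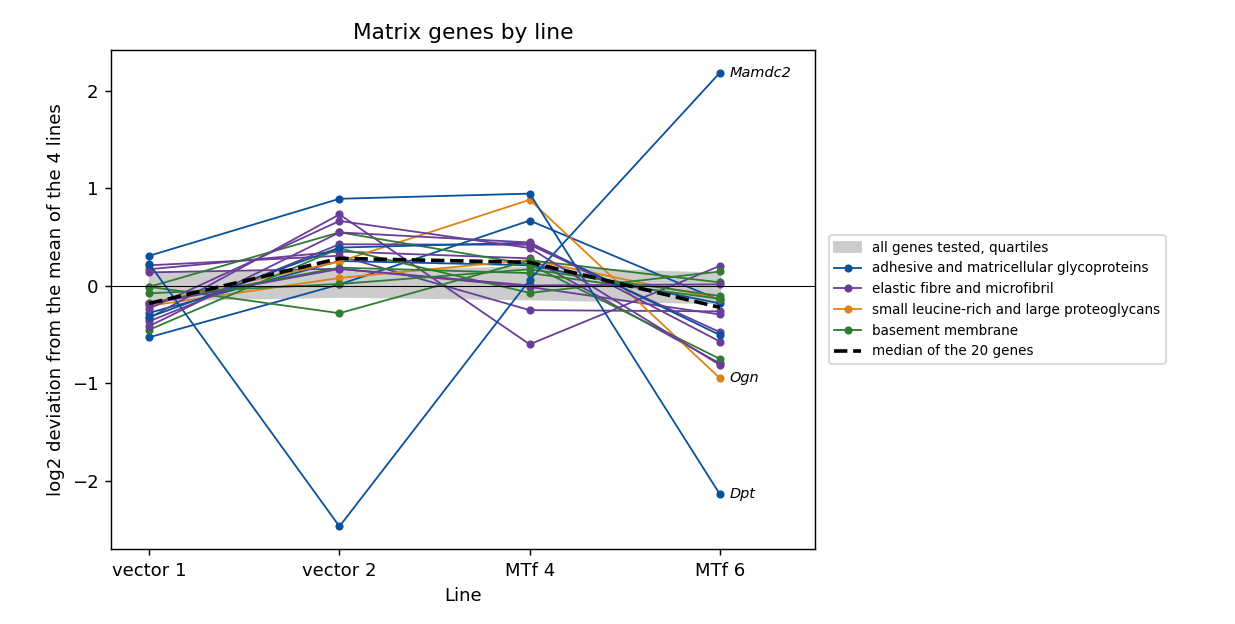
Log2 deviation of each line from the mean of the 4 lines for the 20 tested matrix genes, coloured by role, with the quartiles of all genes tested in grey. Lines join the values of a gene and imply no order. The dashed median is 0.28 in vector 2 and 0.24 in MTf 4 and below 0 in vector 1 and MTf 6. Mamdc2 is far below its mean in vector 2, far above it in MTf 6 and close to it in MTf 4.

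By the highest line, vector 2 led in 12 of the 20 members against 24.0% of all genes, MTf 4 in 7 against 30.5%, MTf 6 in 1 against 22.9% and vector 1 in 0 against 22.7%. By the lowest line, MTf 6 was found in 11 members against 29.2% of all genes, vector 1 in 6 against 24.9%, vector 2 in 2 against 19.7% and MTf 4 in 1 against 26.2%. The lines that were high for these genes were thus 1 of each group, and so were the low ones. MTf 4 was at least 2-fold above MTf 6 in 5 members (Dpt, Ogn, Ltbp1, Ltbp2 and Fbln2), where 3.75% of all genes were so. MTf 6 was at least 2-fold above MTf 4 in 1 member, Mamdc2, against 1.63%. The vector lines were at least 2-fold apart in 2 members, Mamdc2 and Eln, against 3.63%.

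Genes of the replicative helicase, chosen after their values were seen, ran opposite to the members across the lines. For Mcm2 to Mcm7 the median deviation was 0.54 and -0.41 in the vector lines, -0.50 in clone MTf 4 and 0.31 in clone MTf 6. Vector 1 was the highest line for 6 of 6. Mcm5, for example, was at 27515, 15021, 12450 and 23281 in the same order. Their part in the order of the matrix genes was not tested. The 8 tested fibroblast markers had median deviations of -0.18, 0.04, 0.25 and -0.16 in the same order, with MTf 4 the highest line for 6 of them. Col1a1, the alpha 1 chain of collagen I, was at 695, 2400, 2487 and 1441, while Pdgfrb, a growth factor receptor, was highest in vector 1, at 2006, 1437, 1191 and 1238.

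Other genes of the matrix and its chemistry are given by their counts. Their lists were not picked by how the genes moved, but earlier results of these data were known when they were chosen. Of 66 other matrix glycoprotein and proteoglycan genes 20 were tested. Of their 23 probe sets 0 passed limma's adjusted threshold and 1 an unadjusted 0.05, against 0.00444% and 1.81% of all probe sets. Both clones lay below both vector lines in 4 of the 20 genes and above in 1, against 12.6% and 11.8% of all genes. The probe set at an unadjusted 0.05 was that of Podn, podocan, a small leucine-rich protein, at 574 and 831 in the vector lines, 327 in clone MTf 4 and 405 in clone MTf 6. Both clones lay below both vector lines, with a log2 difference of -0.87 (SE 0.28, 95% interval -1.53 to -0.20; limma adjusted p = 1.00). Agrn, agrin, a basement membrane heparan sulfate proteoglycan, was at 50.0, 512, 960 and 458 in the same order, with vector 1 far below the rest. Hapln4, Mmrn2 and Emilin2 had log2 differences of -0.68, -0.63 and -0.24. The median over the 20 genes was -0.09.

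Among 46 genes for the synthesis of proteoglycan chains and hyaluronan, 29 were tested, and 0 of 45 probe sets passed limma's adjusted threshold. At an unadjusted 0.05 limma's test gave 2, against 1.81% of all probe sets. Both clones lay below both vector lines in 7 of the 29 genes and above in 2, against 12.6% and 11.8% of all genes. Has1, a hyaluronan synthase, was at 320 and 430 in the vector lines, 107 in clone MTf 4 and 191 in clone MTf 6, with a log2 difference of -1.20 (SE 0.40, 95% interval -2.14 to -0.26; limma adjusted p = 1.00). B4galt7, which adds the first galactose of the linker that joins chains to core proteins, was at 586, 518, 326 and 307 in the same order, with a difference of -0.74 (SE 0.26). In both genes the clones lay below both vector lines. Chst12, Ugdh and Chpf had differences of -0.64, -0.22 and -0.22, and the median over the 29 genes was -0.06.

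Among 39 receptors of the matrix and proteases that act on it, 21 were tested, and 0 of 52 probe sets passed limma's adjusted threshold and 1 an unadjusted 0.05, against 1.81% of all probe sets. That was a probe set of Ddr1, a collagen receptor kinase, at 303, 116, 492 and 403, with a log2 difference of 1.10 (SE 0.44; limma adjusted p = 1.00). The brightest Ddr1 probe set was at 2510, 2405, 2496 and 2952, with a difference of 0.14. By the brightest probe set of each gene, log2 differences were above 0 for 14 and below 0 for 7, with a median of 0.06. Dag1, dystroglycan, the laminin receptor of muscle and other cells, was at 4205 and 4135 in the vector lines, 5107 in clone MTf 4 and 4912 in clone MTf 6, a difference of 0.26 (95% interval -0.16 to 0.68). Itgb5, an integrin beta chain that pairs with alpha v, was at 6981, 6599, 8048 and 8235, a difference of 0.26 (95% interval -0.14 to 0.66). Both clones lay above both vector lines in 5 of the 21 genes and below in 0, against 11.8% and 12.6% of all genes. Mmp2, Htra1 and Bmp1, which cleave matrix proteins, had differences of 0.26, 0.30 and 0.84. The groups overlapped for Htra1 and Bmp1. Bmp1 was at 284, 936, 1281 and 711 in vector 1, vector 2, MTf 4 and MTf 6 (95% interval -0.38 to 2.06).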

How the data were processed

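Total RNA of 4 LMTK- lines was measured on 1 array each. The deposited intensity of each probe set is a linear signal made by the authors in GCOS 1.3, as the submitters' processing notes list it; the sources used here give no settings. Groups came from the labels, and genes from the platform annotation, with symbols updated through a GRCm38.p6 gene table.

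Signals were used as deposited and converted to log2(signal + 32). Probe sets with a mean signal at or above 205.6 were tested with limma 3.58.1 in R 4.3.3 (lmFit, eBayes with a trend), MTf minus vector, over all 22519 probe sets, adjusted by Benjamini-Hochberg (threshold 0.05). An exact permutation test of 2 against 2 arrays, two-sided, cannot go below 0.333, and the number of arrays limits the precision. A gene was represented by its tested probe set with the highest mean. The fit was tested on simulated data.

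The members and lists were chosen with earlier results of these data known, so no p is given for a list. Values in every line are given for members with an at least 2-fold range, the 10 with the smallest unadjusted p and the 5 brightest of each role; other lists name up to 5 genes by smallest p, each by its brightest tested probe set. In all 10 alternatives were planned, 4 of them leaving out 1 array, and 1 was added after the data were seen. Promoter windows were found in RefSeq tables for 14 of the 20 tested members.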

Additional observations from a re-analysis of the deposited data

How the results depend on the processing

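No paired analysis was possible because the groups share no replicate numbers in the labels. The absence of calls among the members held under both other offsets, without the filter, with quantile normalization, without the trend and with the filter on the mean log2 value, the last chosen after seeing the data. With 1 array left out in turn, 0 to 1 member probe sets passed, the 1 being that of Dpt without MTf 4, and 1 to 21 of all probe sets passed. Over all probe sets the single call ended without the filter (0) and without the trend (0). Without the filter 41 member genes counted, and 27 of them had an at least 2-fold range. The genes added were dim, and the share of all genes without the filter was not computed. The count therefore has no background beside it, and its cause was not tested. With 1 array left out, 4 to 8 of the tested genes had an at least 2-fold range, the fewest without MTf 6. Leaving out an array can only keep or narrow a range, and the share of all genes was not computed for these runs. The median log2 difference of the members lay between -0.34 and 0.21 with 1 array left out, so its sign was not stable. Of the 20 genes 6 kept the sign of their difference under every alternative run, and 14 did not. With 1 array left out, log2 differences were, for Sparc, between -0.24 and 0.29, Bgn between -0.072 and 0.33, Lamb2 between -0.35 and 0.49, Mfap5 between -0.16 and 0.19 and Ogn between -0.98 and 0.85. For the next genes the ranges were as follows, Eln between -0.93 and 0.13, Emilin1 between -0.51 and 0.39, Lamb1 between -0.19 and 0.18, Matn2 between -0.54 and 0.41 and Ltbp1 between -1.03 and 0.17. For the last they were Ltbp2 between -0.64 and 0.38, Hspg2 between -0.075 and 0.20, Fbln2 between -1.06 and 0.021 and Dpt between -2.74 and 0.35. By the mean of all its tested probe sets that of Lamb1 was 0.062. Which gene would differ between further clones was not tested, and dim probe sets give no order of lines.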
